A study of Homo sapiens with 6 samples.

Results

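The genes described here are noncoding RNAs that carry small nucleolar RNAs in their introns or are named with them: every gene whose GENCODE release 29 symbol is SNHG followed by a number (small nucleolar RNA host gene), with GAS5, ZFAS1, DANCR and EPB41L4A-AS1 added by name. The rule found 29 of the 60554 Ensembl gene identifiers in the count files, all 29 of them in release 29, and SNHG28 stands there under 2 identifiers. Of the 29, 24 passed the filter on low counts and were tested among 18683 genes. RNA of Daoy cells, an established human medulloblastoma line, was sequenced in 6 libraries. In 3 libraries the cells overexpressed ZBTB7B with a substitution in its zinc-finger domain, R363L (ZFmut), and in 3 libraries wild-type ZBTB7B (WT). Both were delivered by lentivirus (multiplicity of infection 15, 72 hr) to cells cultured for 4 days in medium with 10% FBS, and no library without the transgene is among the samples. ZBTB7B is a zinc-finger transcription factor, also called ThPOK, and the comparison asks which transcripts depend on its intact zinc-finger domain. The labels do not say that the replicates of a group were separate cultures, so the p-values measure the spread between these libraries, which may be technical.

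Small nucleolar RNAs (snoRNAs) guide chemical modification and processing of ribosomal RNA in the nucleolus. Box C/D snoRNAs guide 2'-O-methylation with fibrillarin, box H/ACA snoRNAs guide pseudouridylation with dyskerin, and the related scaRNAs work on spliceosomal RNAs in Cajal bodies. In vertebrates most snoRNAs are cut out of introns of a host transcript, and in the SNHG genes the spliced host is a long noncoding RNA that is often polyadenylated, reaches ribosomes and is degraded by nonsense-mediated decay. Several hosts, GAS5 and SNHG1 among the best studied, begin with a 5' terminal oligopyrimidine (TOP) stretch, the start shared with messenger RNAs of ribosomal proteins, and GAS5 RNA is known to build up when cells stop growing because its decay depends on translation.

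The start sites of some hosts are shown because this stretch is what gives the TOP-like hosts their name. The RefSeq promoter table (GRCh38.p14) held 24 of the 28 member symbols; SNHG6, SNHG9, SNHG15 and SNHG25 are named only. A C at the annotated start followed without a gap by at least 4 more bases that are C or T, on the sense strand, was present in 6 of the 24 members (25%), in 43 of 63 ribosomal protein genes in the table (68.3%) and in 1104 of all 27305 genes in the table (4.04%). The lines below give 20 bases before the start and 30 from it on, 5' to 3', with the run of C and T from a starting C in capitals. The first 6 hold the motif, SNHG7, SNHG26 and SNHG1 start with a shorter run, and GAS5 and DANCR have no C at the annotated start.

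ZFAS1: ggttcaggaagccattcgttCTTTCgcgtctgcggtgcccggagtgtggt
SNHG5: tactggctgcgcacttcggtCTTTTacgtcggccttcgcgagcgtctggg
SNHG19: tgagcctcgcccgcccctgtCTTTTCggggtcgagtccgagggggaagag
SNHG12: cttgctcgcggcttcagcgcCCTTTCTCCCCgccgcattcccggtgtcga
SNHG4: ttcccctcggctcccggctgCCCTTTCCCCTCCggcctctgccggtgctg
SNHG18: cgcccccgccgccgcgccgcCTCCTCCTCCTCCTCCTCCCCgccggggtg
SNHG7: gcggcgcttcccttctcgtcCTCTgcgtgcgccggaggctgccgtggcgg
SNHG26: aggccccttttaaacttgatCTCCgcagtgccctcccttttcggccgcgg
SNHG1: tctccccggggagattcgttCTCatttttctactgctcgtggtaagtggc
GAS5: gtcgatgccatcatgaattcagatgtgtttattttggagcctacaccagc
DANCR: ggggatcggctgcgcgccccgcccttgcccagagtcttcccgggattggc

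These windows lie at chr20:49278622-49278671 for ZFAS1, chr6:85678704-85678753 for SNHG5, chr16:2155329-2155378 for SNHG19, chr1:28581844-28581893 for SNHG12, chr5:139274081-139274130 for SNHG4 and chr5:9546180-9546229 for SNHG18. The others lie at chr9:136728155-136728204 for SNHG7, chr7:22854220-22854269 for SNHG26, chr11:62855856-62855905 for SNHG1, chr1:173869016-173869065 for GAS5 and chr4:52712374-52712423 for DANCR. SNHG5, SNHG19, SNHG12, SNHG7, SNHG1 and GAS5 are on the minus strand and the rest on the plus strand. RefSeq and GENCODE starts were within 100 bases of each other for 17 of the 24 members, and a window can miss the start used in Daoy cells. Of the members shown, the RefSeq start lay 1259 bases from that in GENCODE for SNHG12, 464 bases for ZFAS1 and 163 bases for GAS5, so the motif in SNHG12 and ZFAS1, and its absence in GAS5, rest on starts on which the annotations differ. With the motif allowed to begin anywhere within 10 bases of the start, it was found in 14 members (58.3%), in 88.9% of the ribosomal protein genes and in 33.3% of all genes. The E-box letters CACGTG, which read the same on both strands, were in the promoter window of 300 bases (250 before and 50 after the start) of 1 member (4.17%, SNHG7) and of 7.43% of all genes. These matches describe letters in the reference sequence and are not measurements of these cells.

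The 3 ZFmut libraries held 22236214, 24729078 and 102730428 gene counts, and the 3 WT libraries 28429913, 56873989 and 31401429. Transgenic and endogenous ZBTB7B cannot be told apart in gene counts. Their sum was 555, 547 and 627 CPM (gene counts scaled by the TMM library size) in ZFmut libraries 1 to 3, against 899, 863 and 951 CPM in WT libraries 1 to 3. ZBTB7B was thus lower in ZFmut by 0.65 ± 0.06 (log2 difference ± SE, adjusted p = 1.39e-06), so the groups differ in the level of ZBTB7B transcripts as well as in its zinc finger, and the part of this in the results that follow was not tested. All differences are ZFmut minus WT on the log2 scale, from edgeR's quasi-likelihood test with Benjamini-Hochberg adjustment over all 18683 genes and a threshold of 0.05. Neural and medulloblastoma markers were present over the 6 libraries (NES 103 to 171 CPM, SOX9 72.6 to 80.8, ZIC1 23.2 to 27.5, GLI2 36.1 to 52.6), ATOH1 reached at most 0.125 CPM, and the leukocyte marker PTPRC and the epithelial marker EPCAM stayed at or under 0.242 and 0.457 CPM. Between groups, higher in ZFmut were NES (0.45 ± 0.08), SOX2 (0.84 ± 0.08), PECAM1 (2.10 ± 0.28, at 0.158 to 1.46 CPM) and GFAP (0.80 ± 0.29, at 0.38 to 1.25 CPM, adjusted p = 0.0473). The other tested neural and medulloblastoma markers were not called. These were SOX9 (-0.02 ± 0.06), ZIC1 (0.11 ± 0.07), ZIC2 (-0.16 ± 0.08), GLI2 (0.19 ± 0.10) and OTX2 (-0.02 ± 0.15, at 2.99 to 4.17 CPM). MAP2 was lower (log2 difference -1.30 ± 0.09), and the other neuronal marker, RBFOX3, differed by -0.10 ± 0.21 (adjusted p = 0.743). The part of these differences in the results that follow was not tested.

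Most of the noncoding host RNAs were higher in ZFmut cells, each by a small amount. Of 24 tested members, 17 (70.8%) rose in ZFmut, against 17.2% of all genes tested. None fell, against 18.4% of all genes; 0 were lower at an unadjusted p under 0.05 in edgeR, and 0 were lower in DESeq2 and limma-voom. The difference was above 0 in 22 of the 24, with a median of 0.28, a fold of 1.21, against a median of -0.004 for all genes, and the called members ran from 1.13-fold to 1.65-fold. Every ZFmut library lay above every WT library in 17 of the 24 tested members, an arrangement found in 22.8% of all genes tested. These 17 were the called members, and the call and the arrangement rest on the same values. Fewer cells of a kind and less RNA per cell cannot be told apart in bulk RNA of this sort.

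**Figure D1:**
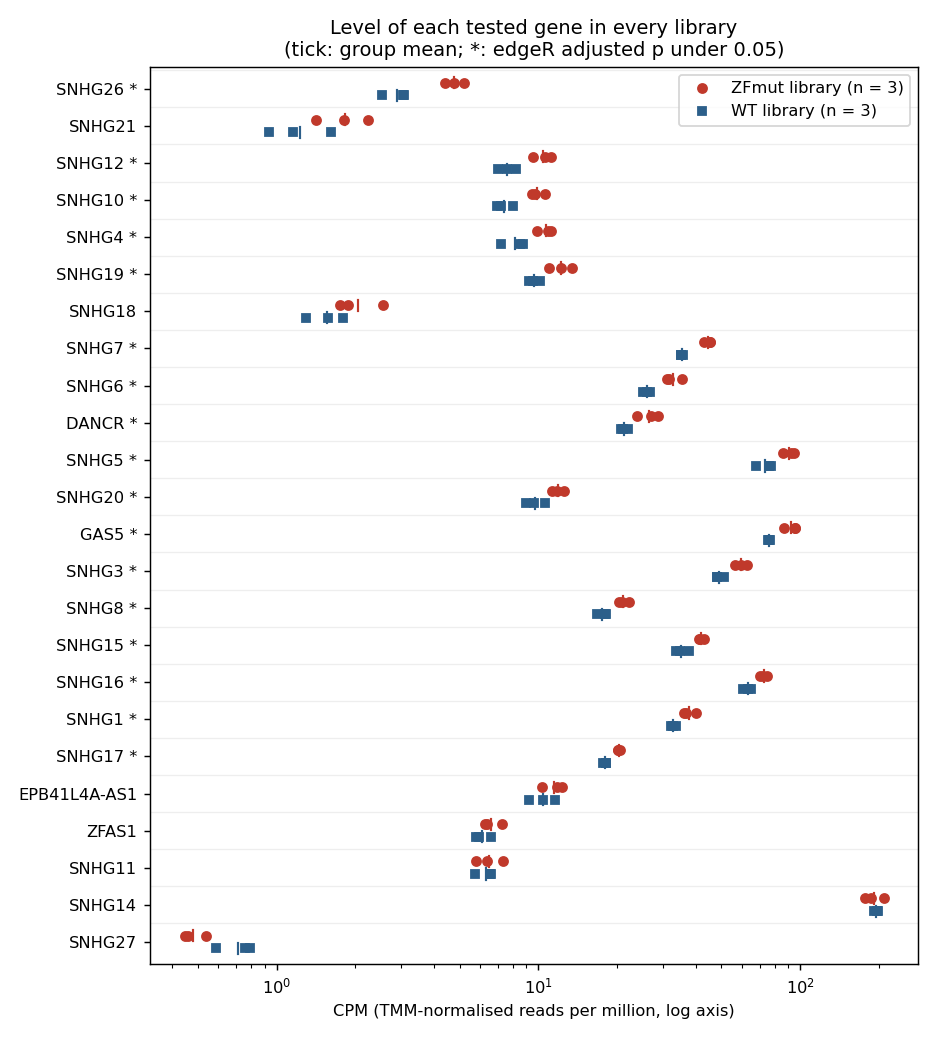
CPM (TMM-normalised, log axis) of each of the 24 tested members in the 3 ZFmut libraries (circles) and the 3 WT libraries (squares), with a tick at each group's mean and an asterisk at members with an adjusted p under 0.05. In the 17 marked members the circles lie to the right of all squares; in SNHG27 they lie to the left.

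Summed over all 29 members, the host RNAs took 835.7, 822.5 and 800.7 CPM in ZFmut libraries 1 to 3, against 719.8, 720.0 and 707.0 CPM in WT libraries 1 to 3, a ratio of 1.15. SNHG14, which was not called, made up a large part of this sum, at 177 to 208 CPM in ZFmut and 191 to 198 CPM in WT over 43324 bases of exon. Without it, the others took 628.1, 645.7 and 614.1 CPM in ZFmut libraries 1 to 3 (629 ± 15.8, mean ± SD, n = 3), against 521.7, 529.1 and 509.9 CPM in WT libraries 1 to 3 (520 ± 9.69, n = 3), a ratio of 1.21. The 2 groups overlapped in neither sum. Per kilobase of exon, SNHG19 had the highest value (35.7 CPM per kb in ZFmut and 28.2 in WT), followed by SNHG5 (32.4 and 26.2), SNHG6 (26.2 and 20.9), GAS5 (25.5 and 21.0) and SNHG8 (22.9 and 19.1). The length counts every base in an exon of any annotated transcript. This order therefore depends on the annotation and compares levels of different genes only roughly. SNHG27 had the lowest among tested members, 0.402 CPM per kb in ZFmut and 0.594 in WT.

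GAS5 (chr1:173863900-173868882 on GRCh38, minus strand), named for growth arrest and host to 10 box C/D snoRNAs and 1 box H/ACA snoRNA in RefSeq, had 95.1, 95.7 and 86.5 CPM in ZFmut libraries 1 to 3, against 76.9, 76.1 and 75.5 CPM in WT libraries 1 to 3. The groups were separate, the WT libraries lay close together, and the difference was 0.28 ± 0.05 (adjusted p = 0.001). SNHG12, which hosts snoRNAs of both classes (SNORD99 and 3 box H/ACA snoRNAs), had 10.6, 11.2 and 9.54 CPM in ZFmut, against 6.98, 8.2 and 7.6 CPM in WT, a difference of 0.43 ± 0.10 (adjusted p = 0.00296). Both rose in every fit run, each library left out included.

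Of the 9 tested members that host box C/D snoRNAs only, 6 rose and 0 fell, with a median of 0.30. The shares over all genes tested were 17.2% and 18.4%. SNHG26, host of SNORD93 (chr7:22854178-22861579, plus strand), had 5.18, 4.38 and 4.78 CPM in ZFmut libraries, against 3.07, 3.03 and 2.53 CPM in WT libraries. Its difference of 0.72 ± 0.13, a fold of 1.65, was the largest among the called members (adjusted p = 0.000482), and none of its exons overlap another annotated gene. SNHG5, host of SNORD50A and SNORD50B, had 92.5, 94.5 and 85.8 CPM in ZFmut, against 76.0, 77.0 and 67.8 CPM in WT (0.30 ± 0.06, adjusted p = 0.00133). The groups were separate, and the lowest library of each was its replicate 3.

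SNHG6, host of SNORD87, was separate between groups, and SNHG19, with its 342 bases of exon the shortest tested member, was as well. SNHG6 had 31.4, 35.5 and 31.1 CPM in ZFmut, against 25.2, 26.1 and 26.7 CPM in WT (0.32 ± 0.07, adjusted p = 0.00193). SNHG19, host of SNORD60, had 11, 12.2 and 13.4 CPM in ZFmut, against 9.57, 9.22 and 10.1 CPM in WT. The difference of SNHG19 was 0.37 ± 0.09 (adjusted p = 0.00518), and without ZFmut replicate 3 it was 0.27 with an adjusted p of 0.0658. SNHG16, host of SNORD1A, SNORD1B and SNORD1C, had 72.1, 74.7 and 70.5 CPM in ZFmut, against 64.8, 63.3 and 60.6 CPM in WT (0.20 ± 0.05, adjusted p = 0.0068; 0.0639 without WT replicate 3). SNHG1, host of 8 box C/D snoRNAs, had 36.6, 40.0 and 35.9 CPM in ZFmut, against 32.8, 33.4 and 32 CPM in WT, with the groups separate by a narrow gap. Its difference of 0.19 ± 0.06 passed the threshold (adjusted p = 0.0273) but not without ZFmut replicate 2 (0.0917), WT replicate 2 (0.0555) or WT replicate 3 (0.114).

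The other 3 box C/D hosts did not pass. ZFAS1, host of the SNORD12 family on chromosome 20 with the motif at its RefSeq start, had 7.23, 6.34 and 6.23 CPM in ZFmut, against 5.91, 6.58 and 5.79 CPM in WT, and the groups overlapped (0.09 ± 0.10, adjusted p = 0.545). ZFAS1 shares 46.9% of its exon length with other annotated genes, among them ZNFX1 on the opposite strand, which was lower in ZFmut by 0.51 ± 0.05 (adjusted p = 4.78e-06), and reads in shared sequence are outside the gene counts when the counting ignores strand. SNHG14 is the long transcript of the imprinted Prader-Willi region on chromosome 15 and is antisense to UBE3A. GENCODE places 80 snoRNAs in its introns and RefSeq 83 inside the gene. SNHG14 had 208, 177 and 187 CPM in ZFmut, against 198, 191 and 197 CPM in WT. The groups overlapped and the difference was -0.04 ± 0.06 (adjusted p = 0.672). SNHG18, host of SNORD123, averaged 2.05 ± 0.431 CPM in ZFmut and 1.55 ± 0.249 CPM in WT (SD, n = 3 each) and differed by 0.37 ± 0.19 (adjusted p = 0.137).

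**Figure D2:**
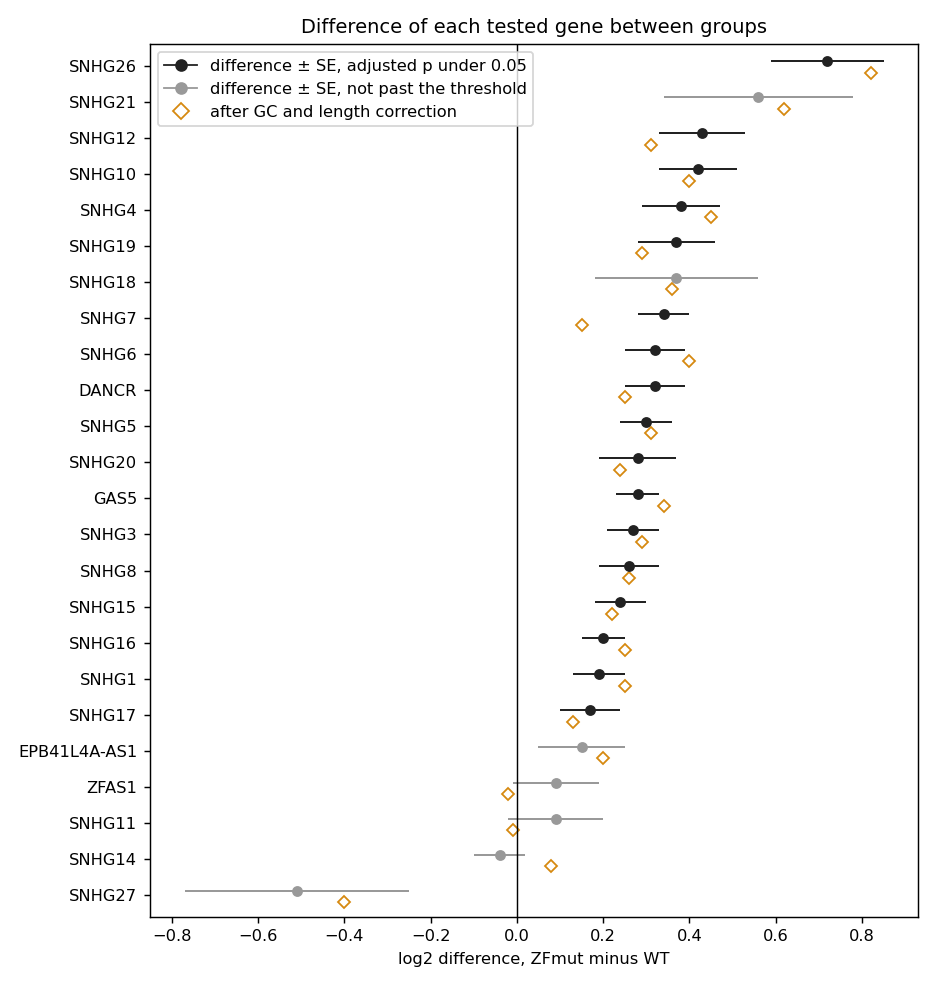
Log2 difference of each tested member, ZFmut minus WT, with its standard error (black where the adjusted p is under 0.05, grey where not), and the same difference with GC content and exon length corrected for (open diamonds). 22 of the 24 points lie above 0; the correction moves SNHG7 from 0.34 to 0.15 and keeps 16 of the 17 called members past the threshold.

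Of the 9 tested members that host box H/ACA snoRNAs only, 7 rose and 0 fell, against 17.2% and 18.4% of all genes tested. Their median was 0.26, with a range of 0.09 to 0.38. SNHG4, host of SNORA74A and SNORA74D on chromosome 5, had 11.2, 9.89 and 10.9 CPM in ZFmut, against 7.22, 8.74 and 8.48 CPM in WT (0.38 ± 0.09, adjusted p = 0.00553). It shares 16.6% of its exon length with other genes, among them MATR3 on the same strand, which stands under 2 identifiers; the identifier called higher differed by 0.40 ± 0.15 (adjusted p = 0.0497) at a mean of 2.43 CPM in ZFmut and 1.84 CPM in WT, the other by -0.20 ± 0.18 (adjusted p = 0.413). SNHG3, host of SNORA73A and SNORA73B, had 62.8, 56.4 and 59.5 CPM in ZFmut, against 48.1, 51.1 and 48.3 CPM in WT (0.27 ± 0.06, adjusted p = 0.0018). SNHG3 lies on the same strand as RCC1, the nucleotide exchange factor of Ran, and shares 11% of its exon length with other genes; RCC1 was higher in ZFmut by the like amount of 0.28 ± 0.06 (adjusted p = 0.00118). SNHG15, host of SNORA9, had 41.6, 43.0 and 40.9 CPM in ZFmut, against 34.7, 37.5 and 33.4 CPM in WT (0.24 ± 0.06, adjusted p = 0.0066; 0.0511 without WT replicate 3).

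SNHG7, host of SNORA17A and SNORA17B at chr9:136721366-136728184 on the minus strand, had 43.0, 45.3 and 45.4 CPM in ZFmut, against 35.2, 35.0 and 35.7 CPM in WT. The libraries of each group lay close together and the difference was 0.34 ± 0.06, with an adjusted p of 0.000313, the smallest among the members. After correction for GC content and exon length it was 0.15 (adjusted p = 0.0416). SNHG7 shares 31.4% of its exon length with other genes, among them FAM69B on the opposite strand, which was higher in ZFmut by 0.83 ± 0.09 (adjusted p = 1.13e-05) at a mean of 10.1 CPM in ZFmut and 5.74 CPM in WT; the library kit does not mark the strand, so reads of this pair cannot be told apart by it.

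DANCR, host of SNORA26 and studied as a regulator of differentiation, had 23.8, 28.6 and 27.0 CPM in ZFmut, against 22.0, 20.7 and 21.1 CPM in WT. Its groups were separate, with ZFmut replicate 1 nearest to the WT libraries (0.32 ± 0.07, adjusted p = 0.00371). SNHG8, host of SNORA24, had 20.4, 22.2 and 20.8 CPM in ZFmut, against 18.1, 17.9 and 16.7 CPM in WT (0.26 ± 0.07, adjusted p = 0.00889; 0.0575 without WT replicate 3). SNHG17, host of 4 members of the SNORA71 family, had 20.1, 20.1 and 20.5 CPM in ZFmut, against 18.1, 18.1 and 17.6 CPM in WT. Though its groups did not overlap, the difference of 0.17 ± 0.07 lay just inside the threshold (adjusted p = 0.0488) and was lost in DESeq2 (0.0739), after the GC and length correction (0.0816) and without each library other than ZFmut replicate 1 in turn (0.0639 to 0.169).

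EPB41L4A-AS1, host of SNORA13 on chromosome 5, had 10.3, 12.3 and 11.8 CPM in ZFmut, against 9.19, 10.4 and 11.6 CPM in WT, and the groups overlapped (0.15 ± 0.10, adjusted p = 0.259). It shares 49.6% of its exon length with other genes, and EPB41L4A on the opposite strand differed by -0.12 ± 0.09 (adjusted p = 0.312). SNHG11, host of SNORA60 and SNORA71E, differed by 0.09 ± 0.11 (adjusted p = 0.604). SNHG11 and SNHG17 lie close together on chromosome 20 on opposite strands, at chr20:38446578-38450921 and chr20:38420588-38435353.

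Hosts of scaRNAs numbered 3 among the tested members, of which 2 rose, against 17.2% of all genes tested. SNHG10, host of SCARNA13, had 9.68, 10.6 and 9.44 CPM in ZFmut, against 7.98, 7.2 and 6.93 CPM in WT (0.42 ± 0.09, adjusted p = 0.00264); it shares 20.1% of its exon length with other genes, and GLRX5 on the opposite strand differed by 0.14 ± 0.07 (adjusted p = 0.117). SNHG20, host of SCARNA16, had 12.5, 11.3 and 11.8 CPM in ZFmut, against 8.98, 9.66 and 10.6 CPM in WT (0.28 ± 0.09, adjusted p = 0.0186), a call lost without ZFmut replicate 3 (0.0655), WT replicate 1 (0.0608) or WT replicate 2 (0.0635). SNHG21, host of SCARNA15, missed the threshold at 0.56 ± 0.22 (adjusted p = 0.0579) and passed it after the GC and length correction (0.62, adjusted p = 0.0217), in limma-voom (0.0445) and without WT replicate 3 (0.027). It had 34 to 184 reads per ZFmut library and 27 to 66 per WT library, and 72.9% of its exon length is shared with other genes.

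SNHG27, for which neither annotation lists a named snoRNA, was the only tested member with all WT libraries above all ZFmut libraries: 0.446, 0.459 and 0.54 CPM in ZFmut, against 0.587, 0.757 and 0.791 CPM in WT. The difference of -0.51 ± 0.26 did not pass (adjusted p = 0.135). The 5 members that were not tested had few reads. SNHG9, host of SNORA78, had 6, 12 and 42 reads in ZFmut libraries and 8, 15 and 9 in WT libraries. SNHG25 had 5, 5 and 6 reads in ZFmut and 5, 8 and 4 in WT, and SNHG22 had 3, 2 and 12 in ZFmut and 7, 8 and 2 in WT. SNHG28 had 4, 3 and 11 reads in ZFmut and 6, 7 and 5 in WT under its lincRNA identifier and 0 in all libraries under its protein-coding identifier; all exons of the first overlap other annotated genes, the second among them.

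**Figure D3:**
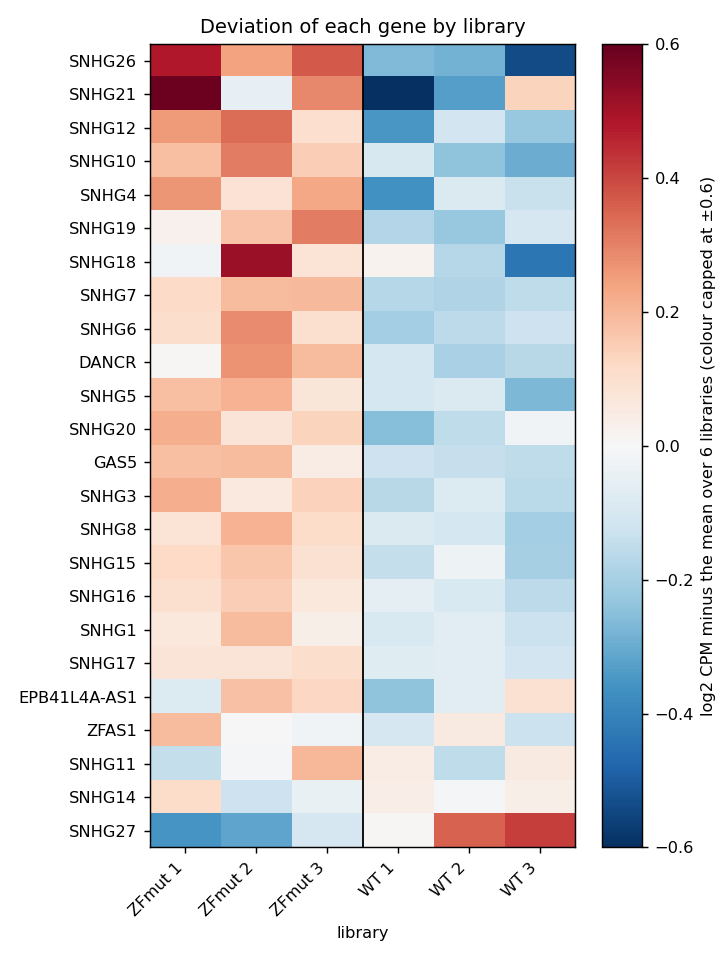
Log2 CPM of each tested member in each library minus its mean over the 6 libraries (colour capped at ±0.6), ZFmut libraries 1 to 3 left of WT libraries 1 to 3. The 17 called members are warm or near white in the ZFmut columns and cool or near white in the WT columns; SNHG27 has the opposite colours, and SNHG11, ZFAS1 and SNHG14 are mixed.

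The calls differed in how far they rested on single libraries. Of the 17 called members, 10 were called in every one of the 16 alternative fits that tested them, with each library left out in turn among these: SNHG26, SNHG12, SNHG10, SNHG4, SNHG7, DANCR, SNHG6, SNHG5, GAS5 and SNHG3. Over the 6 fits with a library left out, 13 to 17 members were called higher and 0 lower, the lowest count without WT replicate 3. Averaged over the tested members, the deviation from each gene's own mean was 0.123, 0.142 and 0.123 (log2 CPM) in ZFmut libraries 1 to 3, against -0.154, -0.110 and -0.124 in WT libraries 1 to 3. A split chosen after seeing the data took the 11 tested members that share at most 10% of their exon length with other genes. In these, 7 rose and 0 fell, against 17.2% and 18.4% of all genes tested, with a median of 0.28. The other 13 are less certain, since reads in shared sequence can be lost or assigned to a partner; beside those already given, the share was 36.4% in SNHG6, 33.4% in SNHG16, 15.3% in SNHG1, 14.2% in SNHG8, 11.9% in DANCR and 10.7% in SNHG20. As a description over the 24 tested members, Spearman's rho of the difference was 0.04 with GC content, -0.20 with exon length and -0.27 with the WT level. It was -0.34 with the number of snoRNAs inside the gene in RefSeq and 0.01 with the share of exon length in overlap. In the RefSeq number the scaRNA hosts SNHG21, SNHG10 and SNHG20 stand at 0, though GENCODE places 1 scaRNA in each. The members share libraries, and no p is given. By start sequence, 4 of the 15 called members in the RefSeq table held the motif at the start (26.7%), against 6 of the 22 tested members in it (27.3%), the called ones included.

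The intron-borne snoRNAs themselves were hardly measured by these libraries. GENCODE placed 131 snoRNA genes inside introns of the members, all with a row in the files. SNHG14 alone holds 80 of them, and GAS5 holds 0, though RefSeq lists 11 inside it. Of the 131, 90 had no read in any library, 99 had under 10 in all 6 together, and the highest total was 327. Some of these snoRNAs share sequence with annotated exons of their host, among them SNORA24 in SNHG8 and SNORA9 in SNHG15, both with 0 reads. Reads on more than 1 gene can be left out of the counts, so such a 0 does not show that the snoRNA was absent. The part of this in the rows without reads was not tested. Of 8 snoRNAs that could be tested, only 1 was called, against 17.2% called higher and 18.4% called lower among all genes tested. This was SNORD104 in SNHG25, which rose (0.74 ± 0.24, adjusted p = 0.0242). In libraries of unequal depth, it had 18, 30 and 106 reads in ZFmut libraries 1 to 3, against 18, 36 and 19 in WT libraries 1 to 3. SNORA71C in SNHG17 had 27, 27 and 163 reads in ZFmut, against 23, 64 and 23 in WT (0.60 ± 0.23, adjusted p = 0.0507). Because these rows hold few reads of libraries not made for small RNAs, they can hold reads of the unspliced host as well as of the snoRNA.

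Most core proteins of the snoRNA particles were higher in ZFmut as well. Of 8 such proteins, 6 rose (75%) and 0 fell, against 17.2% and 18.4% of all genes tested, with a median of 0.17. At an unadjusted p under 0.05 in edgeR, 7 were higher and 0 lower. At the adjusted threshold in DESeq2, the counts were 6 and 0. NHP2, of the H/ACA particle, averaged 91.7 ± 9.06 CPM in ZFmut and 71.0 ± 3 CPM in WT (SD, n = 3 each; 0.37 ± 0.07, adjusted p = 0.000598). NOP56, of the C/D particle, differed by 0.28 ± 0.05 (adjusted p = 0.000949) and FBL, the methyltransferase fibrillarin, by 0.23 ± 0.06 (adjusted p = 0.00791). Without WT replicate 3, 2 of the 8 were called higher. Of 13 assembly factors 4 rose (30.8%) and 1 fell (7.69%), against 17.2% and 18.4% of all genes tested, with a median of 0.05. Among those that rose were RUVBL1 (0.32 ± 0.05, adjusted p = 0.000228) and RUVBL2 (0.37 ± 0.07, adjusted p = 0.000553), the paired ATPases of the R2TP complex. Its adaptor PIH1D1 rose as well (0.28 ± 0.06, adjusted p = 0.0031).

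Of 21 factors of RNA polymerase I transcription and ribosomal RNA processing, 10 rose (47.6%) and 1 fell (4.76%), with a median of 0.14. The shares over all genes tested were 17.2% and 18.4%. Of these 21 factors, 6 were called higher without ZFmut replicate 3, and 6 without WT replicate 3. NOP2, a methyltransferase of the large ribosomal RNA, averaged 124 ± 3.61 CPM in ZFmut and 102 ± 0.353 CPM in WT (SD, n = 3 each; 0.28 ± 0.05, adjusted p = 0.000449). BOP1, of the PeBoW complex, differed by 0.46 ± 0.08 (adjusted p = 0.000511) and UTP4, of the small-subunit processome, by 0.27 ± 0.05 (adjusted p = 0.000539).

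Among messenger RNAs known for a TOP start, some rose. Of 79 cytosolic ribosomal protein genes 40 rose (50.6%) and 0 fell (1 lower at an unadjusted p under 0.05 in edgeR; 0 lower in DESeq2 and 1 in limma-voom), with a median of 0.17. RPL10 (0.31 ± 0.05, adjusted p = 0.000449), RPS2 (0.36 ± 0.07, adjusted p = 0.000619) and RPL23A (0.38 ± 0.07, adjusted p = 0.000623) had the smallest p-values; many ribosomal protein genes have processed pseudogenes that compete for reads, so single values are uncertain. Their mean deviation was 0.028, 0.191 and 0.035 in ZFmut libraries 1 to 3, against -0.086, -0.061 and -0.108 in WT libraries 1 to 3, so ZFmut replicate 2 stood apart in this list, whereas the host RNAs had like values in the 3 ZFmut libraries. Without WT replicate 3, 20 ribosomal protein genes were called higher, and without ZFmut replicate 2, 28. Of 17 protein-coding TOP genes outside the ribosome 4 rose (23.5%, against 17.2% of all genes tested) and 2 fell (11.8%, against 18.4%), with a median of 0.11. EEF2, the translocation factor, was higher by 0.27 ± 0.06 (adjusted p = 0.00423) and RACK1, a ribosome-bound scaffold, by 0.23 ± 0.05 (adjusted p = 0.00311). The histone chaperone NAP1L1 differed by -0.27 ± 0.05 (adjusted p = 0.00138). In this list 2 were called higher without WT replicate 3, 8 in DESeq2 and 10 after the GC and length correction, and 8 without ZFmut replicate 1.

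**Figure D4:**
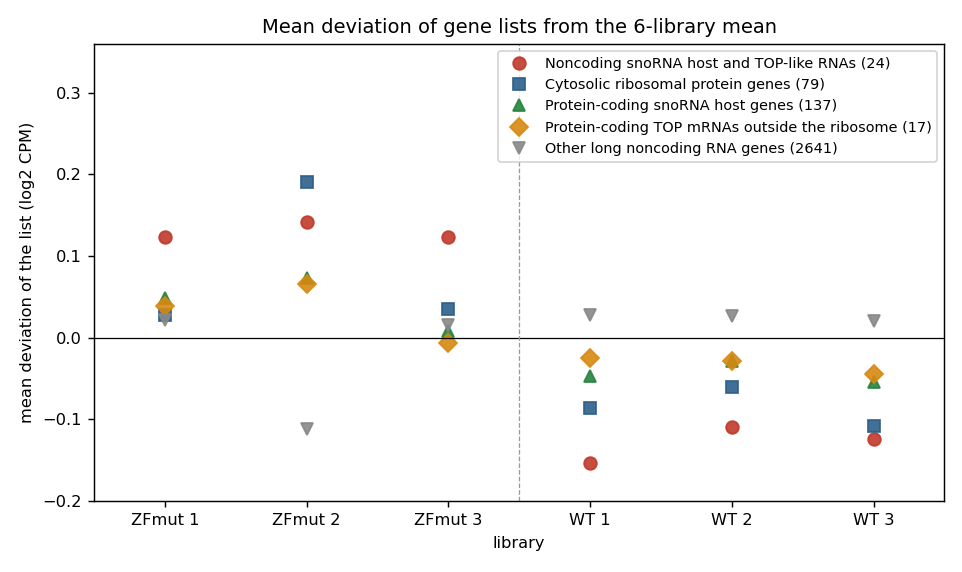
Mean deviation of each gene list from its 6-library mean (log2 CPM) in ZFmut libraries 1 to 3 and WT libraries 1 to 3. The noncoding hosts lie at 0.123 to 0.142 in all ZFmut libraries and at -0.154 to -0.110 in all WT libraries; the ribosomal protein genes are highest in ZFmut replicate 2 (0.191), where the other long noncoding RNAs are lowest (-0.112).

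Regulators of TOP messages and factors of host decay moved in both directions, and their counts depended on the fit. Of 16 regulators of TOP translation and mTORC1 signalling 2 rose and 2 fell (12.5% each, against 17.2 and 18.4% of all genes), with a median of 0.00. After the GC and length correction 5 were called higher and 1 lower, without ZFmut replicate 1 the counts were 4 and 2, without ZFmut replicate 3 they were 1 and 0, and without ZFmut replicate 2, WT replicate 1 or WT replicate 3 they were 2 and 0. EIF4EBP1, the translation repressor that mTORC1 phosphorylates, was higher in ZFmut at 96.1 ± 9.81 CPM, against 64.5 ± 3.83 CPM in WT (SD, n = 3 each; 0.58 ± 0.07, adjusted p = 2.07e-05). RPTOR, the mTORC1 subunit raptor, differed by 0.22 ± 0.06 (adjusted p = 0.00875; not called without ZFmut replicate 3), and TSC1 by -0.15 ± 0.05 (adjusted p = 0.0377), a call lost in 9 of the alternative fits. Of 18 factors of nonsense-mediated decay 1 rose and 1 fell (5.56% each), with a median of 0.02: the endonuclease SMG6 differed by 0.33 ± 0.06 (adjusted p = 0.0008) and SMG9 by -0.26 ± 0.06 (adjusted p = 0.00228). After the GC and length correction 6 of these 18 were called higher, without ZFmut replicate 1 4 and without WT replicate 1 2.

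Protein-coding snoRNA hosts and other long noncoding RNAs are set beside the members as a description only; the lists differ in read depth per gene, and no test was made between them. Of 137 tested protein-coding genes with a named snoRNA in an intron on their own strand, 45 rose (32.8%) and 13 fell (9.49%), with a median of 0.10; 68 were called higher after the GC and length correction. The number called lower was 6 without ZFmut replicate 3, 6 without WT replicate 1, 7 without WT replicate 3 and 8 without ZFmut replicate 2. With ribosomal protein genes left out, 29 of 109 rose and 13 fell, with a median of 0.05. By the smallest p-values in this list, DGLUCY differed by 0.81 ± 0.05 (adjusted p = 5.17e-08), MAGED2 by 0.66 ± 0.07 (adjusted p = 4.91e-06) and FAM155A by -0.78 ± 0.08 (adjusted p = 3.55e-06). Of 2641 other long noncoding RNA genes tested, 201 rose (7.61%) and 250 fell (9.47%), with a median of 0.00, and of 14658 protein-coding genes 19.7% rose and 21.1% fell.

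**Figure D5:**
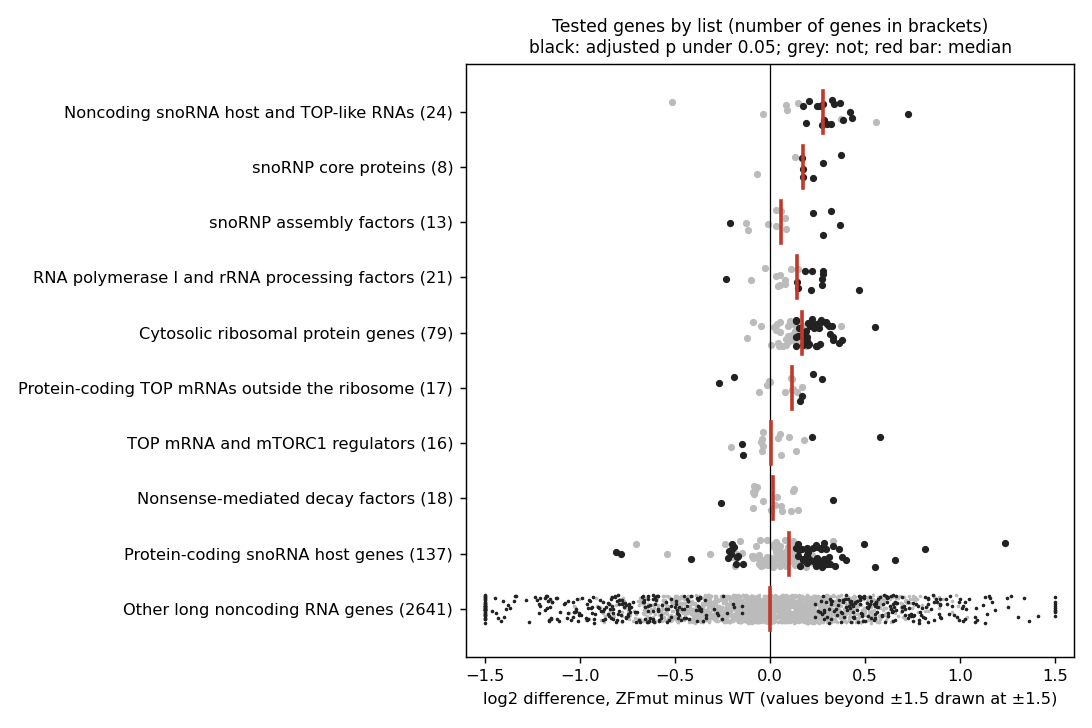
Log2 difference, ZFmut minus WT, of every tested gene in each list (black where the adjusted p is under 0.05, grey where not; values beyond ±1.5 drawn at ±1.5), with the list's median as a red bar. The median is 0.28 for the noncoding hosts, 0.17 for ribosomal protein genes and for core snoRNP proteins, 0.10 for protein-coding snoRNA hosts and 0.00 for other long noncoding RNA genes.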

How the data were processed

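RNA-seq libraries of 3 ZFmut and 3 WT samples were grouped by their titles. The authors deposited raw counts per Ensembl gene, 1 file per library. The submitters' processing notes name GRCh38, TopHat2 2.0.9, HTSeq, cutadapt and DESeq2; which annotation release and strand setting were used is not given in the sources used here. Per the labels' protocols, 2 µg of total RNA went into the NEBNext Ultra RNA kit, whose reads carry no strand. The 5 summary lines of each file stayed out of all sizes and tests; they put 7.71 to 8.08% of reads on more than 1 gene, 16.1 to 19.4% on several places and 5.04 to 6.56% outside genes, so reads of overlapping genes and close copies are partly lost. GENCODE release 29 held 56996 (94.1%) of the 60554 identifiers. Within groups, pairs of libraries differed by more than sampling noise (chi-square of 3.42 to 8.00 per degree of freedom), and each was treated as 1 sample. This excess can be technical and does not show that the libraries came from separate cultures. Depth bounds the precision for low genes, and counting error is included in the fit.

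Tests of the counts used edgeR 4.0.16 under R 4.3.3 (filterByExpr, TMM, quasi-likelihood F test, two-sided, no covariates, Benjamini-Hochberg over 18683 genes, threshold 0.05; the biological coefficient of variation was 6.27%). The standard error is the size of the log2 difference divided by the square root of F. CPM uses the TMM library sizes, and deviations use log2 CPM with a prior count of 2. Alternatives were median-of-ratios and upper quartile scaling, DESeq2 1.42.0, limma-voom (limma 3.58.1), no filter, at least 5 CPM in 3 libraries, each library left out, the replicate number as a block, loess offsets for GC content and exon length (span 0.5) without and with the block, and thinning to the smallest library. The split by overlap of at most 10% was added after seeing the data. The fits were tested on simulated data.

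The members, lists and tests were chosen with earlier results of these data known. All members are accounted for. From each list, up to 3 called genes with the smallest p are named, with ZBTB7B in any case; overlap partners were named after their values were seen. The list of protein-coding hosts holds genes with a SNORD or SNORA gene inside an intron on their strand. No set test was run.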

Additional observations from a re-analysis of the deposited data

How the results depend on the processing

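Over the 16 alternative fits, the members called higher numbered 13 to 18, those called lower 0, and the median difference of the members lay between 0.253 (after the GC and length correction, moved by more than the spread between replicates) and 0.297; the values with the chosen settings were 17, 0 and 0.279. Of 380 values of single members under the alternatives, 353 kept their call, 20 lost it and 7 gained it, the last all of SNHG21. Members that were not called changed sign after the GC and length correction in 3 cases: ZFAS1 to -0.02, SNHG11 to -0.01 and SNHG14 to 0.08. With only the members that share at most 10% of their exon length, 7 of 11 were higher, fewer because fewer genes enter. Over all genes, 2266 to 4226 were called higher and 2504 to 4466 lower. Distinct genes of the context lists called higher numbered 91, with 54 to 117 when a library was left out (54 without WT replicate 3), 142 with the replicate block, 140 after the GC and length correction and 154 with both; those called lower numbered 19, with 8 to 24 when a library was left out and 33 with the block. The cause of these moves was not tested. Replicate numbers of the titles do not pair the libraries by the labels, and the deviations of same-numbered libraries correlated by 0.164, 0.0770 and 0.0635, though each library correlated best with its own number in the other group; with the replicate block 17 members were higher, and 4226 genes were higher and 4466 lower. With the block, calls higher and lower were 64 and 1 of ribosomal protein genes, 67 and 21 of protein-coding hosts, 5 and 3 of TOP and mTORC1 regulators and 4 and 3 of decay factors. Depth limits members with few reads, such as SNHG27 and the 5 that were not tested.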

Other observations

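Some snoRNA hosts carried other names in GENCODE release 29 and are therefore outside the rule. LRRC75A-AS1, now SNHG29, had 231, 257 and 225 CPM in ZFmut libraries 1 to 3, against 198, 198 and 193 CPM in WT libraries 1 to 3, and was higher in ZFmut by 0.28 ± 0.06 (edgeR adjusted p = 0.00184). C6orf48, now SNHG32, had 99.2, 108 and 101 CPM in ZFmut, against 81.5, 82.2 and 78.8 CPM in WT, and was higher by 0.34 ± 0.05 (adjusted p = 0.000124). In both genes every ZFmut library lay above every WT library, as in 22.8% of all genes tested. Both differences lie near the median of the members, 0.28. LRRC75A-AS1 shares 17.8% of its exon length with other genes, and C6orf48, annotated as protein-coding in release 29, shares 29.1%. LINC02001, now SNHG30, averaged 9.59 ± 0.664 CPM in ZFmut and 8.36 ± 0.387 CPM in WT (SD, n = 3 each), a difference of 0.22 ± 0.09 that did not pass (adjusted p = 0.068), and AC016708.1, now SNHG31, had too few reads to be tested.

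Noncoding genes outside the SNHG names that hold a named snoRNA in an intron numbered 9, of which 7 were tested. Apart from MEG8 and AL117190.1, the tested genes are annotated as transcribed pseudogenes (CCT6P3, RPL32P3, LINC00888, CCT6P1 and HMGN2P46). None of the 7 was higher in ZFmut (0 at an unadjusted p under 0.05 in edgeR, and 0 in DESeq2), against 17.2% of all genes tested. Lower were 2, against 18.4% of all genes tested, and the median difference of the 7 was 0.04. MEG8, a maternally expressed RNA of the imprinted DLK1-DIO3 region on chromosome 14 that holds 46 intronic snoRNAs in the annotation, had 3.08, 2.59 and 2.65 CPM in ZFmut, against 4.39, 4.22 and 4.24 CPM in WT (-0.64 ± 0.13, adjusted p = 0.00107). AL117190.1, which overlaps that locus and shares 84.3% of its exon length with other genes, differed by -0.57 ± 0.19 (adjusted p = 0.029; not called in DESeq2 or without 5 of the 6 libraries in turn). These genes were chosen after values of the members were seen.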
